A study of Mus musculus with 4 samples.

Results

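The replication-dependent histone genes encode the H1, H2A, H2B, H3 and H4 proteins that package newly made DNA. The members were the protein-coding genes of the GENCODE mm10 annotation whose symbols begin with Hist1h, Hist2h, Hist3h or Hist4h. They numbered 67 of 21938 protein-coding genes. Of the 82641 regions obtained by merging the peaks of the 4 libraries, 52 had a member's annotated start (TSS) inside or at most 2 kb away, and 49 of these were called in all 4 libraries.

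The data were ATAC-seq peak lists. In this assay the Tn5 transposase cuts accessible DNA and attaches sequencing adapters to it. The libraries were made from EpCam+ CD49f-high epidermal keratinocytes sorted from the abdominal skin of female C57BL/6 mice, 8 to 12 weeks of age, that had received Aldara cream (5% imiquimod, a TLR7 agonist) on 8 consecutive days. The WT group (n = 2 libraries) was of wild-type genotype, and the methods give littermates as controls. The Mapk8-KO group (n = 2) lacked Mapk8, the gene of the kinase JNK1, in cells that express the KRT14-cre transgene (Mapk8 fl/fl, Cre under a keratin 14 promoter). Values of the 4 libraries are given with WT 1 and WT 2 before Mapk8-KO 1 and Mapk8-KO 2. Both groups were treated, so the lists hold no untreated skin. The comparison between genotypes asks whether JNK1 in keratinocytes affects which chromatin is open in the inflamed epidermis.

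Histone genes of this kind are mostly expressed in S phase, when DNA is replicated. Most of their transcripts carry no poly(A) tail and end in a short stem-loop that SLBP binds. The genes lie in clusters, often with an H2A and an H2B gene that point away from each other and share the promoter between them. NPAT, a substrate of cyclin E and CDK2, gathers at the clusters in a nuclear structure called the histone locus body.

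The Hist1 cluster on chromosome 13 held 54 members in a pair of stretches. One ran over chr13:21715763-22043676 with 23 genes and the other over chr13:23531050-23934851 with 31 genes. Hist2 (chr3:96219865-96270132) held 10 members, Hist3 (chr11:58948920-58956830) 2 and Hist4 (chr6:136801553-136804415) 1. By type there were 6 H1, 18 H2A, 18 H2B, 12 H3 and 13 H4 genes. In 64 of the 67 genes the coding sequence was a single exon, and its length ran from 309 to 669 bases. Within 150 bases after the coding sequence, 57 of the 67 genes had an exact stem-loop of 6 paired bases around a loop of TTTC or TTTA. The most frequent form (38 genes), that of most H4 genes (8 genes, all H4) and the form with the other loop (9 genes) are shown because they mark these genes as replication-dependent. They are written as DNA with the loop in capitals. In Hist1h2bk the form with the TTTA loop lay at chr13:22036300-22036315 on the plus strand (GRCm38.p6), after the coding sequence.
Form 1: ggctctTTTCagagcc
Form 2: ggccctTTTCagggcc
Form 3: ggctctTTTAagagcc

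Promoter sequences from RefSeq (GRCm38.p6, 250 bases before to 50 after each start) were matched for 62 of the 67 genes. The CCAAT box (CCAAT, either strand), which NF-Y binds, was present in 53 of the 62 windows, or 85.5%, against 37.4% of all 32851 RefSeq promoter windows. It stood in all 6 H1, all 18 H2A, all 16 H2B and all 10 H3 windows, but in 3 of the 12 H4 windows. The TATA box (TATAAA, either strand) was found in 35 windows (56.5%; 13.6% of all). The octamer (ATTTGCAT), which POU2F1 binds and which is known from H2B promoters, was found in 14 windows (22.6%; 1.74% of all), 7 of H2A and 7 of H2B genes, and in no H1, H3 or H4 window. The H1 box (AAACACA) was found in 5 of 6 H1 windows and in 9 of all 62 (14.5%; 7.18% of all). The H2A and H2B windows are not independent, since the windows of a divergent pair overlap.

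The GC box (GGGCGG) stood in 24 windows (38.7%; 35.7% of all), 9 of them of H4 genes. The CREB/ATF palindrome (TGACGTCA) was found in 4 windows (6.45%; 1.79% of all), and the E2F-like words TTTCCCGC or TTTGGCGC in 1 (1.61%; 1.56% of all). The AP-1 word TGACTCA, the site bound by FOS and JUN proteins, was found in none of the 62 windows and in 5.20% of all. No match says only that these letters are not in the window.

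The 7 promoters below are those to which the results return, namely the H2A and H2B pair with the highest fold, a testis pair with no peak, the H3 genes with the lowest and the highest fold, the H4 genes with the largest differences between genotypes, and an H1 gene. Each is written 5′ to 3′ on its gene's strand. Capitals mark the words of the CCAAT box, the TATA box, the octamer, the CREB/ATF palindrome and the H1 box on either strand.
Hist1h2bk (H2bc12), chr13:22035571-22035870, plus strand: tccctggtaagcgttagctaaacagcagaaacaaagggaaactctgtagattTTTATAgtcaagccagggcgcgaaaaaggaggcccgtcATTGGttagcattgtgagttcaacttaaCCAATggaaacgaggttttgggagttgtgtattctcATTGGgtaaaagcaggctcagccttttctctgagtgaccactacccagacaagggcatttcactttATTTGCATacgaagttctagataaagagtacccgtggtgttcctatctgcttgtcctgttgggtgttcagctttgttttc
Hist1h2ba (H2bc1), chr13:23934107-23934406, minus strand: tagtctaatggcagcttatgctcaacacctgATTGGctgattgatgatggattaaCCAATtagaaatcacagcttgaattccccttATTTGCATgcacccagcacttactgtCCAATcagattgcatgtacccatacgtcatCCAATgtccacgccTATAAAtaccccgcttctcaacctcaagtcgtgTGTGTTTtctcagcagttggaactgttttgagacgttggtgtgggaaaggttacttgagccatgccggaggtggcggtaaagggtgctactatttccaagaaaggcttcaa
Hist1h3d (H3c4), chr13:23575513-23575812, plus strand: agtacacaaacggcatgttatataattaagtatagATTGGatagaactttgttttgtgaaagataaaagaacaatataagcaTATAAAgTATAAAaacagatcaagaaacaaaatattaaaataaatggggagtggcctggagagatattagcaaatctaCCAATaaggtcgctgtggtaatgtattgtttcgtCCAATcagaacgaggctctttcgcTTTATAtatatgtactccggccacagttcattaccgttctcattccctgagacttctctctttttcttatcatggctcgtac
Hist1h3e (H3c6), chr13:23562336-23562635, minus strand: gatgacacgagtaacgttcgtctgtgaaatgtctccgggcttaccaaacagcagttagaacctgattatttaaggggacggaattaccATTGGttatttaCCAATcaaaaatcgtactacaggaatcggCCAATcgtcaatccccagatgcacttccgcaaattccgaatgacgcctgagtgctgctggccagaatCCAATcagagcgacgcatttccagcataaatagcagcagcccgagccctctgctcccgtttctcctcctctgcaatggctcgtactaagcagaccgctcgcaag
Hist1h4f (H4c6), chr13:23551619-23551918, minus strand: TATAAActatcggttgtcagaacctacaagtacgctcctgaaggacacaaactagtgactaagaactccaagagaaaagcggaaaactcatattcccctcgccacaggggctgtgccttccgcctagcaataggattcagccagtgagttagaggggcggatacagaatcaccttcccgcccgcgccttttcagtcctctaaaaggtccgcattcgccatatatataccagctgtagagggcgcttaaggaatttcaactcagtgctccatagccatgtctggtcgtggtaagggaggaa
Hist1h4a (H4c1), chr13:23761200-23761499, minus strand: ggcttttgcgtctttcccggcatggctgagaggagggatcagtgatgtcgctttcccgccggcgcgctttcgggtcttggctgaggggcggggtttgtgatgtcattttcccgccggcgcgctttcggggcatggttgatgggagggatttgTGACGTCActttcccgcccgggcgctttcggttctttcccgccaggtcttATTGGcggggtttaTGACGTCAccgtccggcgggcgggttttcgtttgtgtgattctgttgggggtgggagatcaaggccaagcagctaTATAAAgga
Hist1h1d (H1f3), chr13:23554782-23555081, plus strand: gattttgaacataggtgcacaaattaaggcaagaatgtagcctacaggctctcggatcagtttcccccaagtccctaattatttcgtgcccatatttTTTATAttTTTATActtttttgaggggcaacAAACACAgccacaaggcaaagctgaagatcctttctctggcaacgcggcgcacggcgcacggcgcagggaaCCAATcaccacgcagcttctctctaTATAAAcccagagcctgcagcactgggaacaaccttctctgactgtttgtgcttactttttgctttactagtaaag

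Nearly all histone genes had open chromatin at or near an annotated start in these keratinocytes. A peak lay within 2 kb of a start in 65 and 64 of the 67 genes in the WT libraries and in 65 in each of the Mapk8-KO libraries. In all 4 libraries together, 64 of 67 genes had one, or 95.5%, against 55.4% of all protein-coding genes. The share in Mapk8-KO minus that in WT was 0.746 percentage points, the value of 1 gene in 1 library.

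The genes without a peak were Hist1h2aa and Hist1h2ba, both known as testis histone genes. They form a divergent pair with starts 306 bp apart, and no library had a peak within 2 kb of either. The window of Hist1h2ba printed above holds TATA, CCAAT, octamer and H1 box words, and that of Hist1h2bk, which had a peak, holds all of these but the H1 box. Hist1h1t, the testis H1 gene, had no peak of its own either. Its nearest region lay 1789 bp away at the start of Hist1h4c, and no base of its coding sequence was covered in any library. Hist1h3i was called in 3 libraries, with a summit pileup of 73 fragments in the first WT library and of 75 and 41 in those of Mapk8-KO, and no peak in WT 2. The region at the start of Hist1h1b was also called in 3 libraries, with 31 fragments in WT 1, 17 in WT 2 and 32 in Mapk8-KO 1. It was not called in Mapk8-KO 2, although a second region within 2 kb of that gene was called in all 4.

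Annotation decided the link of a pair of genes. The GENCODE starts of Hist1h1d left it nearest to the Hist1h4f region, at 1407 bp. Its RefSeq start, in the window printed above, fell inside another called region, chr13:23554936-23556518, with pileups of 97, 54, 93 and 44 fragments in WT 1, WT 2, Mapk8-KO 1 and Mapk8-KO 2. The GENCODE start of Hist1h2be lay in the region of Hist1h1e, far upstream of its RefSeq start. With RefSeq starts added, 50 regions called in all 4 libraries were linked to members in place of 49.

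The summit pileup is the number of sequenced fragments that cover the highest point of a peak, and the fold is that height over the local background that the peak caller took from the surroundings, each with 1 added. These measures ranked the histone regions on opposite sides of the middle. The median pileup of the 49 regions was 80 and 53 fragments in WT and 88 and 55 in Mapk8-KO. Over all 40159 regions called in all 4 libraries it was 49, 34, 54 and 30. The histone median was thus 1.66 ± 0.118 times that of all regions (mean ± SD of the 4 libraries). Expressed as a percentile among all these regions within a library, the mean pileup of histone regions was 73.5 ± 2.23 (SD, n = 4 libraries), and 43 of the 49 lay above 50.

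The mean percentile of the fold was 32.6 ± 3.13 (SD, n = 4 libraries), and 13 of the 49 lay above 50. The median fold was 7.17 and 6.79 in WT and 6.86 and 7.07 in Mapk8-KO, below the 9.17, 8.69, 9.23 and 8.18 of all regions in every library. The 12192 regions at protein-coding promoters had a mean fold percentile of 53.7 ± 2.64 and a mean pileup percentile of 58.0 ± 2.83. Histone regions therefore lay above the coding promoters in pileup and below them in fold in each of the 4 libraries.

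By their definition the measures differ in the local background, which was recovered from the deposited fold and −log10 p. Its median at histone regions was 11.8 and 7.37 fragments in WT and 13.2 and 7.21 in Mapk8-KO. At all regions it was 4.36, 2.88, 4.76 and 2.68, and at coding promoters 5.11, 3.37, 5.77 and 3.50. The ratio of the histone median to that of all regions was 2.68 ± 0.0913 (SD, n = 4 libraries). A median of 826 bases within 10 kb around a histone region belonged to other called regions, against 0 for coding promoters and 158 for all regions. Whether the neighbouring open regions set the background was not tested.

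**Figure D1:**
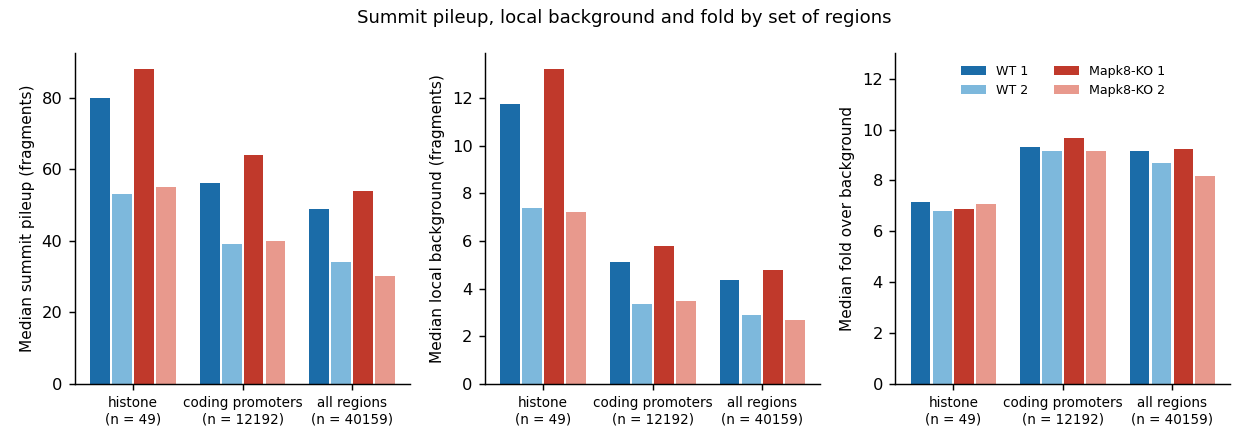
Median summit pileup (fragments), median local background (fragments) and median fold over background, as bars for each of the 4 libraries, in histone regions, coding promoter regions and all regions called in all 4 libraries. In every library the histone bars are the highest of the 3 sets for pileup and background and the lowest for fold.

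Of the 49 regions, 10 had a mean fold percentile under 10, and their mean pileup percentiles ran from 38.1 to 75.9 with a median of 58.7. Genome-wide, the 2781 regions under that fold percentile had a median pileup percentile of 33.9. The lowest fold was that of Hist1h3d, an H3 gene. Its region (chr13:23575674-23576041) had pileups of 51 and 35 fragments in WT and 54 and 35 in Mapk8-KO. Its mean pileup percentile was 53.7, and the background of 15.8, 9.31, 17.0 and 9.64 fragments left folds of 3.10, 3.49, 3.05 and 3.38. The fold percentile was at most 0.626 in any library. Others of the 10 were taller, such as Hist1h4m with a pileup percentile of 75.9 at a fold percentile of 3.32.

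**Figure D2:**
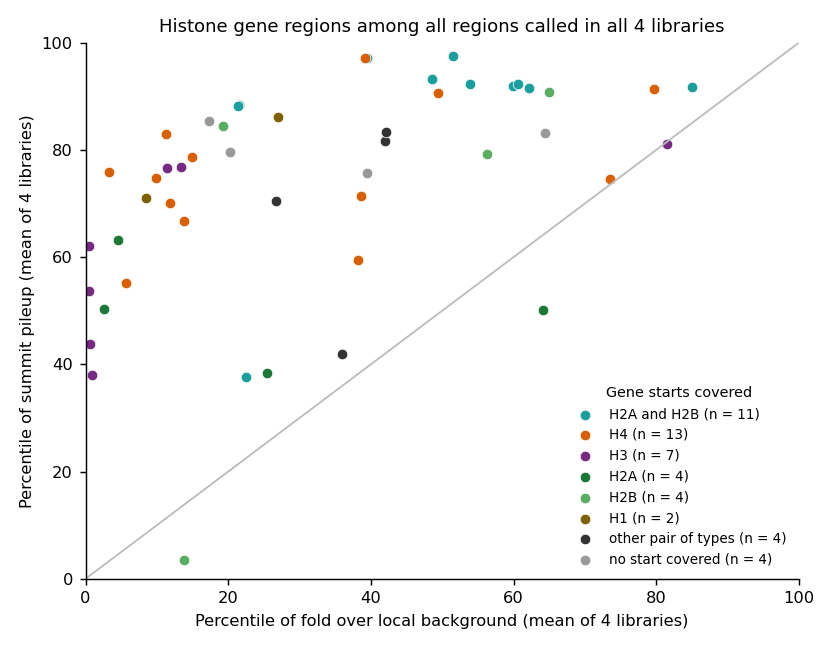
Each point is 1 of the 49 histone gene regions, at its percentile of fold (horizontal) and of summit pileup (vertical) among all 40159 regions called in all 4 libraries, averaged over the 4 libraries and coloured by the histone types whose starts it covers. Most points lie above the grey line of equal percentiles, with 43 regions above a pileup percentile of 50 and 13 above a fold percentile of 50.

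The divergent H2A and H2B promoters were the tallest class. In all, 12 pairs of an H2A and an H2B gene had starts between 176 and 306 bp apart (median 259.5), and in 11 of them 1 shared region covered both starts. Those 11 regions had a median width of 1023 bp. Their median pileup was 115 and 80 fragments in WT and 126 and 72 in Mapk8-KO, and the mean pileup percentile was 87.4 ± 0.557 (SD, n = 4 libraries). The pair Hist2h2ac and Hist2h2be was low, with 41, 30, 43 and 24 fragments and a mean pileup percentile of 37.6. The mean fold percentile of 47.9 ± 4.61 was near the middle of all regions. The 7 regions that cover only H3 starts had a median width of 453 bp, a pileup percentile of 61.7 ± 2.37 and a fold percentile of 15.5 ± 2.20. By class mean, the H2A and H2B regions stood above the H3 regions in both measures in each of the 4 libraries.

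The pair with the highest fold was Hist1h2ah and Hist1h2bk (chr13:22035055-22036220), whose shared promoter, most of it in the window printed above, has CCAAT words in the middle, a TATA word on the H2A side and the octamer on the H2B side. Pileups were 115 and 70 fragments in WT and 126 and 88 in Mapk8-KO. The folds of 12.5, 12.4, 13.6 and 13.5 gave a mean fold percentile of 85.0, the highest among H2A and among H2B genes. At the other end, Hist1h2ab, an H2A gene without a partner, had 51, 25, 53 and 41 fragments and a mean fold percentile of 2.57. Its region was narrow, at 429 bp.

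H4 genes had 13 regions of their own, with a median width of 784 bp and a pileup percentile of 76.1 ± 2.94. The highest H4 fold belonged to Hist1h4c, with pileups of 112, 83, 118 and 73 fragments in WT 1, WT 2, Mapk8-KO 1 and Mapk8-KO 2 and a mean fold percentile of 79.6. The lowest belonged to Hist1h4m, with 75, 48, 84 and 51 fragments over a background of 17.6, 10.3, 19.1 and 10.8 and a mean fold percentile of 3.32. Among H3 genes the range was as wide. Hist1h3e (chr13:23561895-23562893) had 81, 55, 87 and 65 fragments over a background of 5.99, 3.63, 6.15 and 3.68 and a mean fold percentile of 81.6, against 0.421 for Hist1h3d. In WT 1 Hist1h3e thus had a higher pileup and a lower background than Hist1h3d, and the same held in the other libraries.

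H1 genes, which encode the linker histones, had 6 members in Hist1. Their highest fold percentile, 79.6, is that of the Hist1h4c region near Hist1h1t. Among H1 regions called in all 4 libraries the lowest was Hist1h1a, with 68, 53, 82 and 36 fragments and a mean of 8.42. Over the 3 libraries that called it, the Hist1h1b start had a mean fold percentile of 0.182 and a mean pileup percentile of 16.9, the lowest H1 values.

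**Figure D3:**
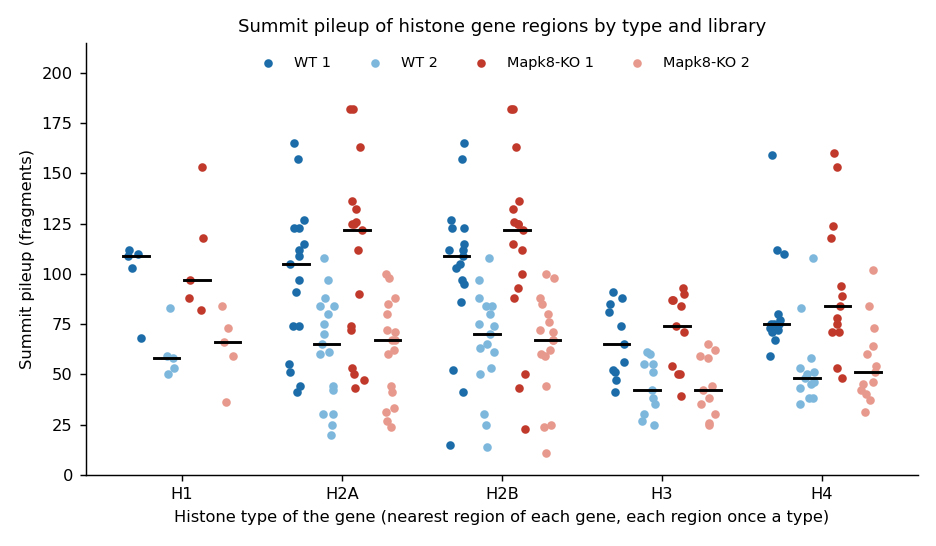
Summit pileup (fragments) of the nearest region of each gene by histone type, 1 point per region and library, for regions called in all 4 libraries. Black bars are medians. The H1 points include the Hist1h4f and Hist1h4c regions, which were nearest to Hist1h1d and Hist1h1t. H2A and H2B medians lie above those of H3 in every library, and Mapk8-KO 1 and WT 1 lie above Mapk8-KO 2 and WT 2 in all types, as their depths do.

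Hist1, Hist2 and Hist3 lay far apart in height, and the region of Hist4 ranked as Hist2 did. The mean pileup percentile was 85.8 ± 2.00 (SD, n = 4 libraries) in the Hist1 stretch of lower coordinates, 74.7 ± 1.86 in the other Hist1 stretch, 55.2 ± 5.33 in Hist2 and 26.8 ± 2.69 in Hist3, in that order in each library. Hist1 and Hist2 regions had median backgrounds of 12.6 and 12.9 fragments (the Hist1 stretches) and 6.31 fragments (Hist2) in WT 1. Hist3 had 3.05. In Hist3, Hist3h2a (H2A) had pileups of 55, 30, 50 and 33 fragments in WT 1, WT 2, Mapk8-KO 1 and Mapk8-KO 2 and a mean fold percentile of 64.1, in a region shared with the start of Trim17. Hist3h2ba (H2B) had the lowest pileups of any member region called in all 4 libraries, at 15, 14, 23 and 11 fragments, with a mean pileup percentile of 3.47 and a fold percentile of 13.9. Hist4h4, the only Hist4 member, had 59, 38, 53 and 31 fragments, a pileup percentile of 55.2 and a fold percentile of 5.65.

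The types also differed in where the called peaks lay. Upstream of the start, at 500 bp, a peak covered 50% of H2A and 70.8% of H2B genes (means of 4 libraries), 25.0% of H3, 7.69% of H4 and 0% of H1 genes. In the divergent H2A and H2B pairs this position lies past the partner's start, since paired starts were 176 to 306 bp apart. At the start itself coverage was between 79.2% (H1) and 98.1% (H4). The H1 share counts Hist1h1d as covered, which holds for its RefSeq start and not for its GENCODE starts. These positions thus run from RefSeq starts where one was matched, unlike the links of regions to genes. Downstream, at 400 bp, 55.8% ± 15.9 of H4 genes and 50% of H1 genes were still covered (SD, n = 4 libraries), against 29.2% ± 5.32 of H2A, 23.6% ± 12.3 of H2B and 35.4% ± 14.2 of H3 genes. H4 has the shortest coding sequence of the 5 types, and peaks covered a median of 98.2% of it. The same median was 75.7% for H2A, 70.9% for H2B, 57.3% for H3 and 55.6% for H1. The part of repeated coding sequence in these shares was not tested.

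**Figure D4:**
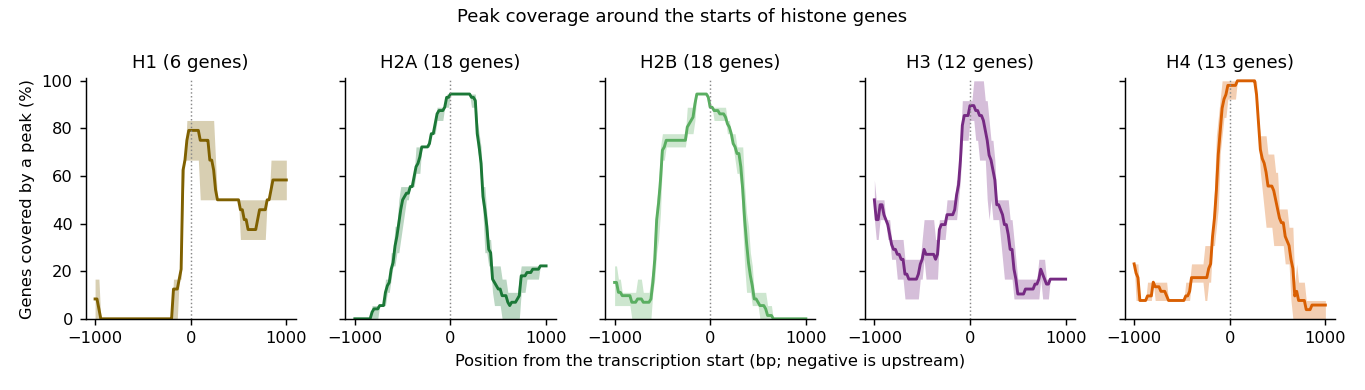
Share of genes of each histone type (percent, vertical) covered by a called peak at each position from the transcription start (bp, horizontal, negative upstream). The start is that of RefSeq where one was matched. Lines are means and bands the range of the 4 libraries. H2A and H2B coverage extends upstream into the shared promoter, whereas H1 and H4 coverage begins near the start and extends into the gene.

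Many of these genes have near-identical copies, which limits how surely fragments can be placed. The median share of 50-base words of the coding sequence that occur elsewhere in the genome was 11.0% for H1, 84.2% for H2A, 77.1% for H2B, 85.4% for H3 and 71.2% for H4. Promoters were mostly unique. In 10 of 67 genes (14.9%) over 50% of the words of the promoter window were repeated, against 5.65% of all coding genes. The extreme case was a duplication of 10523 bp. Its copies, chr13:21801258-21811780 and chr13:21832162-21842684, hold the pairs Hist1h2ao/Hist1h2bq and Hist1h2ap/Hist1h2br, and every 50-base word of both regions is repeated.

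The methods state that reads with several alignments had been removed. The copies were nevertheless among the tallest regions, with pileups of 157, 108, 182 and 100 fragments at Hist1h2ao/Hist1h2bq and 165, 97, 182 and 98 at Hist1h2ap/Hist1h2br, and mean pileup percentiles of 97.4 and 97.2. The 4 genes cannot be told apart in these data, and each value may hold fragments of the other copy. The regions of Hist1h4m and Hist1h4n, at the inner ends of the copies, were 88.2% and 84.4% repeated. Their coding sequences were 100% repeated, so their values carry a like limit. Pileups at Hist1h4n were 159, 108, 160 and 102 fragments. The part of repeated sequence in the widths and heights of the other regions was not tested.

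Between genotypes no histone region passed the test. Of the 40159 regions, limma called 0.605% at an adjusted p of 0.05 (44 higher and 199 lower in Mapk8-KO), and 0 of the 49 histone regions. In the fit without WT 2 the majority of called regions genome-wide was instead higher in Mapk8-KO. At an unadjusted p under 0.05 there were 2 histone regions, against 11.3% of all regions. The median log2 difference in summit pileup, Mapk8-KO minus WT, was 0.05 over the 49 histone regions and 0.05 over all regions, against 0.16 at coding promoters. Of the 49, 31 were higher and 18 lower in Mapk8-KO (63.3% higher; 57.4% of all regions and 75.7% of coding promoter regions). The majority turned with the centring, to 16 of 49 higher with centring on coding promoters and 21 of 49 within GC bins. After centring for depth, pileups of the genotypes did not overlap and were higher in Mapk8-KO in 10 of 49 regions (20.4%; 24.6% of all regions), and higher in WT in 4 (8.16%; 16.9% of all). The study describes the 2 samples of a group as independent, and neither it nor the labels say how many animals each came from, so the p-values measure the spread between these samples.

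Both regions with an unadjusted p under 0.05 belong to H4 genes. At Hist1h4f (chr13:23551342-23551855) pileups were 110 and 58 fragments in WT and 153 and 84 in Mapk8-KO. After centring for depth, both Mapk8-KO values lay above both WT values, and the log2 difference was 0.53 ± 0.18 (SE; adjusted p = 0.165, limma), or 0.34 without WT 2. At Hist1h4a (chr13:23760935-23761718) pileups were 75, 53, 124 and 64 fragments in the same order. The centred values again did not overlap, and the log2 difference was 0.52 ± 0.19 (SE; adjusted p = 0.217, limma). The promoters of both, printed above, held TATA and GC box words. The TATA word stood at the upstream end of the Hist1h4f window, and after the RefSeq start in that of Hist1h4a. That of Hist1h4a also held CCAAT, the CREB/ATF palindrome and an E2F-like word.

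The same regions were the 2 of 49 (4.07% of all regions) whose fold percentile was at least 10 points higher in Mapk8-KO without overlap. The fold percentile of Hist1h4f was 39.0 and 32.8 in WT against 58.3 and 67.6 in Mapk8-KO, and that of Hist1h4a 4.46 and 5.86 against 18.1 and 16.9. In the other direction the count was 0 of 49 (4.65% of all regions). A share of 4.08% of histone regions is near the background. Over the 49 regions the mean fold percentile was 31.5 ± 1.90 in WT and 33.8 ± 4.55 in Mapk8-KO (SD, n = 2 each), a difference of 2.24 points, below the 3.00 points at coding promoters and within the spread of the libraries. The difference was 0.465 points without Mapk8-KO 2 and 5.25 without Mapk8-KO 1. As a percentile among coding promoter regions it was -0.505 points.

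The next largest increase was at Hist1h2ab, with a log2 difference of 0.40 ± 0.24 (SE; adjusted p = 0.538, limma). It was 0.17 without WT 2, 0.20 without Mapk8-KO 2, 0.63 without WT 1 and 0.62 without Mapk8-KO 1. The largest decrease was at Hist1h2af (H2A), where pileups were 74, 44, 72 and 27 fragments in WT 1, WT 2, Mapk8-KO 1 and Mapk8-KO 2. The log2 difference was -0.35 ± 0.22 (SE; adjusted p = 0.563, limma). It rested on Mapk8-KO 2, since it was -0.04 without that library and -0.66 without Mapk8-KO 1. Hist4h4 followed with -0.20 ± 0.23 (SE; adjusted p = 0.791, limma) and did not overlap between genotypes. Hist2h4, with pileups of 67, 38, 48 and 40 fragments, had -0.18 ± 0.23 (SE; adjusted p = 0.811, limma), which was -0.44 without Mapk8-KO 2 and 0.09 without Mapk8-KO 1. By class, the median log2 difference was 0.07 over the 11 H2A and H2B regions (7 higher in Mapk8-KO), 0.16 over the 7 H3 regions (5 higher) and 0.01 over the 13 H4 regions (7 higher). A p above the threshold does not show that the genotypes were alike: the 95% interval of the Hist1h4f difference ran from 0.17 to 0.88.

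**Figure D5:**
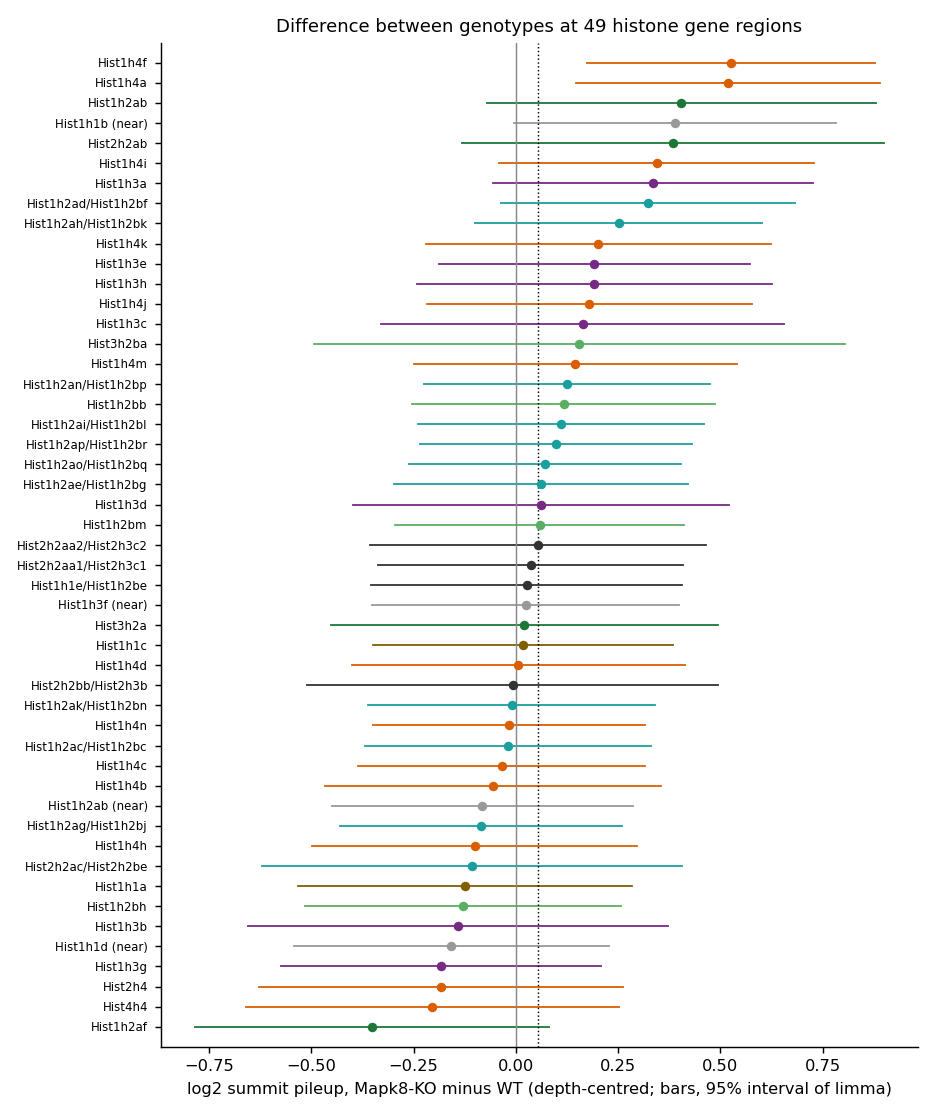
Log2 difference in depth-centred summit pileup, Mapk8-KO minus WT (horizontal), with its 95% interval from limma, for the 49 histone regions in order of the difference, coloured by the histone types covered as in the plot of percentiles; the dotted line is the median over all 40159 regions. The intervals of Hist1h4f and Hist1h4a do not reach 0, and no region passed the adjusted threshold.

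All 16 genes of the histone locus body and of histone mRNA processing were called in all 4 libraries, with a mean fold percentile of 70.7 ± 3.69 and a pileup percentile of 71.6 ± 4.78 (SD, n = 4 libraries). Both percentiles varied within the list, with 13 of the 16 above 50 in fold and 13 in pileup. The lowest in both was Eri1, which encodes an exonuclease that acts on the histone mRNA end, with a fold percentile of 29.4 and a pileup percentile of 34.9. Their median background in WT 1 was 4.82 fragments. Npat had pileups of 148, 118, 174 and 105 fragments in WT 1, WT 2, Mapk8-KO 1 and Mapk8-KO 2. Casp8ap2, which encodes the histone locus body protein FLASH, had 160, 102, 174 and 117. None of the 16 passed limma's adjusted threshold, 2 had an unadjusted p under 0.05 (11.3% of all regions), and 13 were higher in Mapk8-KO, as were 75.7% of coding promoter regions. The largest differences were at Zfp473 (log2 0.56 ± 0.23, SE; adjusted p = 0.313, limma) and Hinfp, a factor of H4 promoters (0.42 ± 0.21, SE; adjusted p = 0.427, limma).

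All 12 histone chaperone genes were called in all 4 libraries, with a mean fold percentile of 68.4 ± 1.39, and none passed limma's adjusted or unadjusted threshold of 0.05. The largest differences were at Ssrp1, a subunit of FACT (log2 0.38 ± 0.23, SE), and Chaf1a, a subunit of CAF-1 (-0.38 ± 0.20, SE). The replication-independent histone genes encode variants that are also made outside S phase. Of these, 9 of 11 were called in all 4 libraries, with a mean fold percentile of 48.9 ± 1.89, a pileup percentile of 57.4 ± 5.28 and a median background of 5.44 fragments in WT 1. None passed limma's threshold, adjusted or not. Differences were largest at H2afz, which encodes H2A.Z (log2 0.32 ± 0.17, SE), and Cenpa, the centromeric H3 (0.23 ± 0.25, SE).

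Inside the spans of the clusters lay 10 protein-coding genes that are not histone genes. Of these, 4 were called in all 4 libraries (Trim17, Prss16, Zfp184 and Hfe). Slc17a1, Slc17a2, Slc17a3, Slc17a4 and Trim38, which lie in the Hist1 stretch of higher coordinates, had no peak within 2 kb in any library. The median background of the called neighbours was 4.96 fragments in WT 1, and none passed limma's threshold, adjusted or not. The largest differences were at Zfp184 (log2 -0.48 ± 0.29, SE) and Hfe (0.33 ± 0.32, SE). Calls were thus not shared by all genes of a cluster.

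The lists held 69927 and 54856 peaks (WT) and 69583 and 49856 peaks (Mapk8-KO), and median pileups set the depth of the libraries at 1, 0.694, 1.12 and 0.646 relative to WT 1. Of the keratinocyte markers, 5 of 7 were called in all 4 libraries (Krt14, Itga6, Epcam, Trp63 and Itgb4). Krt5 was called in 3 libraries and Col17a1 in 2. Of the 5 immune markers none was called in all 4, and Ptprc, Cd3e, Lyz2 and Itgam had no peak. The melanocyte markers were called (3 of 3, Pmel in a region of Cdk2), as were 2 of 3 endothelial and 2 of 3 fibroblast markers, at regions whose mean pileup percentiles were 50.2, 49.8 and 27.9. Keratinocyte marker regions called in all 4 libraries had a mean pileup percentile of 47.3, below the melanocyte and endothelial values. Their mean fold percentile was 37.4, against 74.1 for melanocyte, 62.4 for endothelial and 28.4 for fibroblast markers. None of the marker regions that could be tested passed limma's adjusted threshold (1 melanocyte marker at an unadjusted p under 0.05). The region at the start of Krt14 (the Cre was under a keratin 14 promoter) was not among them, since it was called in 3 libraries, with 36 fragments in WT 1, none in WT 2, which had another peak within 2 kb, and 199 and 109 fragments in Mapk8-KO. The part of this difference and of other cells in the histone values was not tested. The start of Mapk8 was called in all libraries with pileups of 96, 73, 109 and 90 fragments. It checks nothing about the deletion, since the deleted part of the gene is not given in the sources used here.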

How the data were processed

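ATAC-seq peak lists of 4 libraries (2 WT, 2 Mapk8-KO, grouped by their genotype labels) were analysed. Per the methods, the authors aligned paired reads with Bowtie2, dropped ambiguous or low-quality alignments, and ran MACS2 on whole fragments at a q of 0.05 with no control. The submitters' processing notes name mm10, Trimmomatic 0.36 and STAR 2.5.3, and the study's methods give Trimmomatic and STAR for its RNA-seq. Each list deposited by the authors gives a score, the fold over local background (a ratio), −log10 p-values and −log10 q-values, and the summit's offset. Read totals are not given in them. The score and the offset were not used for results.

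With MACS2's Poisson model, the summit pileup and local background were solved from fold and −log10 p. At least 99.996% of pileups came out whole within 0.05. The peaks of all libraries were merged at 1 bp overlap, and a region's highest pileup and fold per library were kept. Regions within 2 kb of a GENCODE vM21 TSS were linked to genes. Log2 pileups of the 40159 regions called in all 4 libraries were centred on each library's median and tested with limma 3.58.1 (R 4.3.3; trend, two-sided, Benjamini-Hochberg over all regions, no filter on low values and no pseudocount), since reads per region are not used here. The test and the pileup recovery were tested on simulated data. Sequence, annotation and 50-base words came from GRCm38.p6, whose chromosomes hold all peaks; promoter sequences are from RefSeq. Depth was read from the median pileup, 30 to 54 fragments over all regions. Python 3.11.15, numpy 2.4.6, pandas 2.3.3 and scipy 1.17.1 were used.

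The members and lists were chosen with earlier results of these data known. Genes were named by rule: members without a call in a library, the highest and lowest mean fold percentile per type, the 3 largest log2 differences in each direction, regions past a threshold (adjusted p of 0.05, or a rank gap of 10 points), Hist3 and Hist4 members and testis genes, and the largest differences in the comparison lists. Npat, Casp8ap2, Eri1, Krt14 and Hist1h1d were added after their values were seen. Alternatives were leaving out each library, a 500 bp limit, q of 0.001, the replicate block, other centrings, other percentiles and rank gaps, and further ones added after seeing the data.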

Additional observations from a re-analysis of the deposited data

How the results depend on the processing

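No alternative changed the count of 0 histone regions past limma's adjusted threshold in 14 settings, 4 of them chosen after seeing the data (log2 fold in place of pileup, centring on the median log2 ratio to WT 1, RefSeq starts added, and without regions of which at least 50% of words are repeated). Over these settings the lowest adjusted p of a histone region ran from 0.092 to 0.770. Replicate numbers are shared by the groups, but nothing in the labels says that they mark pairs, and the differences between replicates 1 and 2 of the genotypes correlated at 0.04 over all regions. With the replicate block the count of histone regions stayed at 0, the median log2 difference stayed at 0.05, and 386 regions were called in place of 243 genome-wide. The genome-wide count was 91 with centring within GC bins (25 higher, 66 lower in Mapk8-KO), 10 with centring on coding promoters (0 higher, 10 lower), 83 with centring on the median ratio (5 higher, 78 lower), 0 without a variance trend and 0 on log2 fold, and 51, 10, 1590 and 30 without WT 1, WT 2, Mapk8-KO 1 and Mapk8-KO 2. The median log2 difference of histone regions ran from -0.01 to 0.09 when a library was left out, and became -0.081 with centring on coding promoters, which moved the median of all regions from 0.05 to -0.08. The differences at single regions, none of them called, ran with libraries left out from -0.44 to 0.09 at Hist2h4, from -0.66 to -0.04 at Hist1h2af, from 0.17 to 0.63 at Hist1h2ab and from 0.34 to 0.69 at Hist1h4f. The mean fold percentile of histone regions, 32.6, was 57.8 for −log10 p in place of fold, 29.4 among coding promoters and 73.5 for pileup (chosen after seeing the data), and 33.2 to 34.9 with a library left out. Regions ranked higher in Mapk8-KO numbered 2, and 4 at a gap of 5 points, 0 at 20 points, 1 by pileup percentile, and 3 to 11 with a library left out (11 without Mapk8-KO 1). Regions ranked higher in WT numbered 0, and 1 at a gap of 5 points and 1 to 2 with a library left out. The difference in the share of genes called, 0.746 points, was -1.49 where a peak had to cover the start, and ran from -0.746 to 2.24 with a library left out. Where these values moved the cause was not tested. Of 80 recomputed values, 65 stayed within the spread of the libraries or the 1.5-fold limit for counts. With 2 libraries a group an exact permutation test could not pass a threshold of 0.05.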
